A study of Mus musculus with 38 samples.

Results

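The 7 genes described here, Pvalb, Syt2, Kcng4, Kcnc1, Kcnc2, Nefh and Tac1, are enriched in fast-spiking parvalbumin interneurons of the cortex. They were taken from a list of such genes, and the list was selected on measured values of this study: several of its genes had lower counts in mutant mice. All 7 were found among the 57010 gene IDs of the count table, and all 7 passed the filter on low counts in every fit. Because the genotype values chose these genes, their genotype differences are given as a description with no test, and tests are kept for the effect of stress, its dependence on genotype and sex, and genes outside the list.

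The data were bulk RNA sequencing counts from the medial prefrontal cortex of 38 mice, with 1 library from each mouse. Control mice were SSTCre animals, in which Cre recombinase is driven by the promoter of the neuropeptide somatostatin. Mutant mice were SSTCre:γ2f/f animals, which carry the same Cre together with a homozygous conditional allele. The Cre line is therefore shared by all groups, and the mutation is aimed at somatostatin neurons, not at the parvalbumin cells in which the 7 genes are enriched. Unstressed mice (NS) of each genotype were set against mice that had undergone chronic variable stress for 21 days (CVS), with tissue taken 24 hours after the last stressor. Males comprised 5 unstressed and 6 stressed controls with 3 unstressed and 4 stressed mutants. Each of the 4 female groups held 5 mice. Ages are not given in the labels. Total counts ranged from 17.64 M to 27.51 M per library (mean 21.06 ± 2.275 M, SD, n = 38).

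Parvalbumin basket cells are GABAergic interneurons that fire long trains of brief action potentials and inhibit pyramidal neurons at the soma. Kv3 potassium channels repolarise their membrane quickly, and the calcium sensor synaptotagmin 2 couples each spike tightly to transmitter release. The calcium buffer parvalbumin shapes the calcium transient in the terminal, and neurofilaments support the calibre of the axon. In the prefrontal cortex these cells pace fast network rhythms, and somatostatin neurons are among the cells that inhibit them. In bulk tissue, a lower count of these genes from fewer such cells cannot be told apart from less RNA in each cell.

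RefSeq promoter windows (GRCm38.p6) were matched for 6 of the 7 genes, with 11 windows in all. The windows of Syt2, Pvalb and Kcng4 are shown because these genes had the largest genotype differences of the 7 and varied together from mouse to mouse. Each sequence is the 250 bases before the annotated start, 5′ to 3′ on the strand of the gene. Capitals mark an oestrogen-related receptor element, TCAAGGTCA, searched on both strands.
Syt2 (chr1:134646362-134646611, plus strand): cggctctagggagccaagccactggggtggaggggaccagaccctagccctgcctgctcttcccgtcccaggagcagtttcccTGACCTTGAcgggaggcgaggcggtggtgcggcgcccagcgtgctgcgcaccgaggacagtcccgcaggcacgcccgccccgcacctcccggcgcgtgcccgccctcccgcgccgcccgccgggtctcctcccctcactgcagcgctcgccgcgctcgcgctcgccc
Pvalb (chr15:78206401-78206650, minus strand): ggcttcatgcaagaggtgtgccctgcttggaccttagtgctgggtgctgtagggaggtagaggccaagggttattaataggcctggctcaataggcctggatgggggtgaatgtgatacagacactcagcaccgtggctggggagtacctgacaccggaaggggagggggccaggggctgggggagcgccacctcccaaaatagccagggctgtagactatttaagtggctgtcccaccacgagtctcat
Kcng4 (chr8:119635681-119635930, minus strand): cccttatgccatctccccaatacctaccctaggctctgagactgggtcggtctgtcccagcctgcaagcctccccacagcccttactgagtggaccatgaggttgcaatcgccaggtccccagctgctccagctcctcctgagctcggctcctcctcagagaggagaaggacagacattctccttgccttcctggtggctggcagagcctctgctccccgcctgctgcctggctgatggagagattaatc
The element was chosen for the search after the Syt2 window had been read, and it stands there as its reverse complement, TGACCTTGA. It occurred in 1 of the 11 windows and in 0.387% of all 32851 windows of the same length. The shorter half-site AAGGTCA lies within this element, was found only in the same Syt2 window among the 11, and occurred in 4.08% of all windows. The AP-1 letters TGACTCA were present in the other Syt2 window (4.46% of all windows), the E-box CACGTG in the Tac1 window (6.02%), and TATAAA in 0 of the 11 windows (12.4%). These matches describe letters in a window and were not tested against expression.

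Expression levels are in CPM (counts per 1000000), scaled with TMM factors of all 38 libraries. Divided by the exon length of each gene in kilobases, mean levels were 28.7 CPM per kb for Pvalb, 23 for Kcnc1, 16.4 for Kcnc2, 13.5 for Nefh, 3.69 for Tac1, 3.51 for Syt2 and 1.06 for Kcng4. Kcng4 was the scarcest on this scale and in raw counts, which ran from 36 to 160 per library. Its lowest count has a 95% Poisson interval of 25.21 to 49.84, which covers counting error only. Raw counts of Kcnc1 ran from 3579 to 6084 and those of Pvalb from 401 to 1006. Libraries of a group also differed unequally by gene: the within-group SD on the log2 scale was 0.391 for Kcng4, 0.310 for Syt2, 0.252 for Pvalb, 0.208 for Tac1, 0.166 for Nefh, 0.0845 for Kcnc2 and 0.0759 for Kcnc1.

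Several libraries need a remark before the group values. Cdhr1, a cadherin of olfactory bulb neurons, reached 25.2 and 26.4 CPM in male mutant NS replicates 2 and 3, and 15.9 CPM in replicate 1 of male control CVS. It lay between 1.73 and 5.34 CPM in the other 35 libraries. The summed level of 8 olfactory bulb markers, of which 4 passed the filter, ran from 4.70 to 20.1 CPM in controls and from 4.43 to 30.0 CPM in mutants. Cdhr1 is 1 of these 8 markers and made up most of the highest sums. The sums are therefore not evidence separate from its own level. The 10 markers of cortical glutamatergic neurons summed to 2477 to 2877 CPM, and the 7 thalamic markers to 32.1 to 51.6 CPM. The lists hold different genes, so these sums do not measure how much thalamus was present. The genotype label of male mutant CVS replicate 1 was in doubt from earlier results of these data and is taken here as given. Without it the median genotype difference of the 7 genes was -0.25, against -0.27 with all libraries. Male and female mice were named in different series and could be 2 cohorts, and no level is compared across sexes.

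Pvalb encodes parvalbumin, the EF-hand calcium buffer that gives the cells their name. In males its CPM was 29.5, 33.5, 32.9, 33.1 and 35.1 in control NS mice and 23.6 to 47.6, with a median of 32.8, in the 6 control CVS mice. Male mutants had 26.6, 39.6 and 24.7 without stress and 21.1, 22.8, 25 and 34.3 after CVS. In females it was 23.4, 32.1, 40.8, 29.9 and 37.0 in unstressed and 30.3, 30.2, 36.4, 32.7 and 28.4 in stressed controls, and 22, 26.8, 20.1, 27.1 and 20.5 in unstressed and 26.5, 26.8, 30.6, 28.3 and 25.1 in stressed mutants. The genotypes overlapped in all 4 strata, and 15 of 17 mutant mice lay below the mean of their own controls. Such counts, for this gene and those below, describe the values on which the genes were chosen. Mutants of a stratum are set against the same controls, and no share over all genes was taken unless given. Male mutant NS replicate 2, at 39.6 CPM, was above every male control NS mouse. Averaged over sex and stress, the log2 fold change of mutant against control was -0.30 ± 0.084 (SE), with a 95% interval from -0.47 to -0.13.

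Syt2 encodes synaptotagmin 2, the fast calcium sensor of basket cell terminals. Male CPM was 26.8, 34.8, 23.6, 24.2 and 26.9 in unstressed controls, 17.2 to 45.6 with a median of 29.2 in stressed controls, 20.5, 33.1 and 19.9 in unstressed mutants, and 19.4, 18.4, 19.4 and 25.3 in stressed mutants. Female CPM was 22.8, 34.2, 40.8, 29.5 and 38.1 in unstressed controls, 24, 33.5, 35.3, 28.1 and 27.5 in stressed controls, 19.4, 20.1, 20.8, 25.1 and 19.3 in unstressed mutants, and 22, 24.7, 27.3, 22.5 and 26.3 in stressed mutants. Here 16 of 17 mutants lay below the mean of their own controls, and in unstressed females 4 of 5 mutants were below every control. The log2 fold change averaged over sex and stress was -0.42 ± 0.104, with an interval from -0.63 to -0.21.

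Kcng4 encodes a silent potassium channel subunit that forms channels only together with other Kv subunits. In males its CPM was 4.67, 5.60, 4.69, 6.04 and 5.84 in unstressed controls, 2.81 to 7.52 with a median of 4.36 in stressed controls, 2.18, 6.44 and 4.19 in unstressed mutants, and 3.12, 3.27, 2.50 and 4.18 in stressed mutants. In females it was 4.02, 3.96, 7.56, 3.79 and 6.54 in unstressed controls, 3.17, 3.86, 4.40, 5.07 and 3.28 in stressed controls, 1.98, 2.75, 2.14, 3.89 and 2.03 in unstressed mutants, and 3.19, 2.73, 3.10, 3.09 and 2.24 in stressed mutants. Kcng4 had the largest genotype difference of the 7 genes, -0.59 ± 0.126 over all groups (interval -0.84 to -0.33) and -1.03 ± 0.203 in unstressed females. Of 17 mutants, 16 lay below the mean of their own controls, and 4 of 5 female mutants lay below every control in each stress condition. The exception in males was again mutant NS replicate 2, at 6.44 CPM.

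Kcnc1 and Kcnc2 encode the Kv3 channels that repolarise the fast spike, and both are also transcribed in other cortical neurons. Kcnc1 averaged 204.3 ± 7.30 CPM (SD, n = 5) in unstressed and 212.8 ± 16.5 (n = 6) in stressed male controls, against 200 ± 11.6 (n = 3) and 190.8 ± 13.4 (n = 4) in the male mutants. In females the means were 240.9 ± 13.5, 233.5 ± 9.30, 216.9 ± 10.1 and 226.8 ± 6.17 CPM in the same order (n = 5 each). Its genotype difference was -0.096 ± 0.024 over all groups, small beside that of Kcng4. Of 17 mutants, 15 were below the mean of their own controls.

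Kcnc2 gave male means of 121.3 ± 4.76 CPM in unstressed and 127.1 ± 9.83 in stressed controls, against 118.1 ± 7.2 and 117.4 ± 8.93 in the mutants. Female means were 118.8 ± 2.91, 116.8 ± 3.06, 109.0 ± 8.76 and 107.7 ± 6.66 CPM. In females 4 of 5 mutants lay below every control in each stress condition, although the highest mutant NS mouse reached 120.6 CPM. Its difference over all groups was -0.100 ± 0.027, close to that of Kcnc1, and 15 of 17 mutants were below the mean of their own controls.

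Nefh encodes the heavy neurofilament chain, which is also abundant in projection neurons with thick axons. In males it averaged 56.7 ± 3.28 and 56.5 ± 9.80 CPM in unstressed and stressed controls, and 53.5 ± 12.1 and 48.5 ± 2.76 CPM in unstressed and stressed mutants. The female means in this order were 57.9 ± 2.54, 57.1 ± 4.49, 49.1 ± 7.11 and 51.9 ± 4.34 CPM. The single male mutant NS library above all its controls was replicate 2, with 66.8 CPM against 43.1 and 50.6 in the other mice of the group. The difference over all groups was -0.17 ± 0.054, and 14 of 17 mutants were below the mean of their own controls.

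Tac1 encodes the precursor of substance P and neurokinin A and is transcribed in a subset of parvalbumin cells and in some other neurons. Male CPM was 12.3, 13.4, 13.9, 14.5 and 14 in unstressed controls, 10.4 to 15.4 with a median of 12.2 in stressed controls, 11.2, 10.6 and 8.34 in unstressed mutants, and 9.35, 12.7, 9.58 and 13.1 in stressed mutants. Female CPM was 17.5, 14.3, 17.4, 14.9 and 12.5 in unstressed controls, 12.1, 12.2, 10.4, 11.8 and 17.2 in stressed controls, 11.4, 11.8, 14.6, 10.3 and 13.5 in unstressed mutants, and 9.82, 12.9, 10.8, 9.86 and 13 in stressed mutants. In unstressed males all 3 mutants lay below all 5 controls. This was the only stratum without overlap between genotypes among the 7 genes, and 1.86% of the 17212 genes tested in males were separated the same way there. The difference over all groups was -0.27 ± 0.065, and 13 of 17 mutants were below the mean of their own controls.

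**Figure D1:**
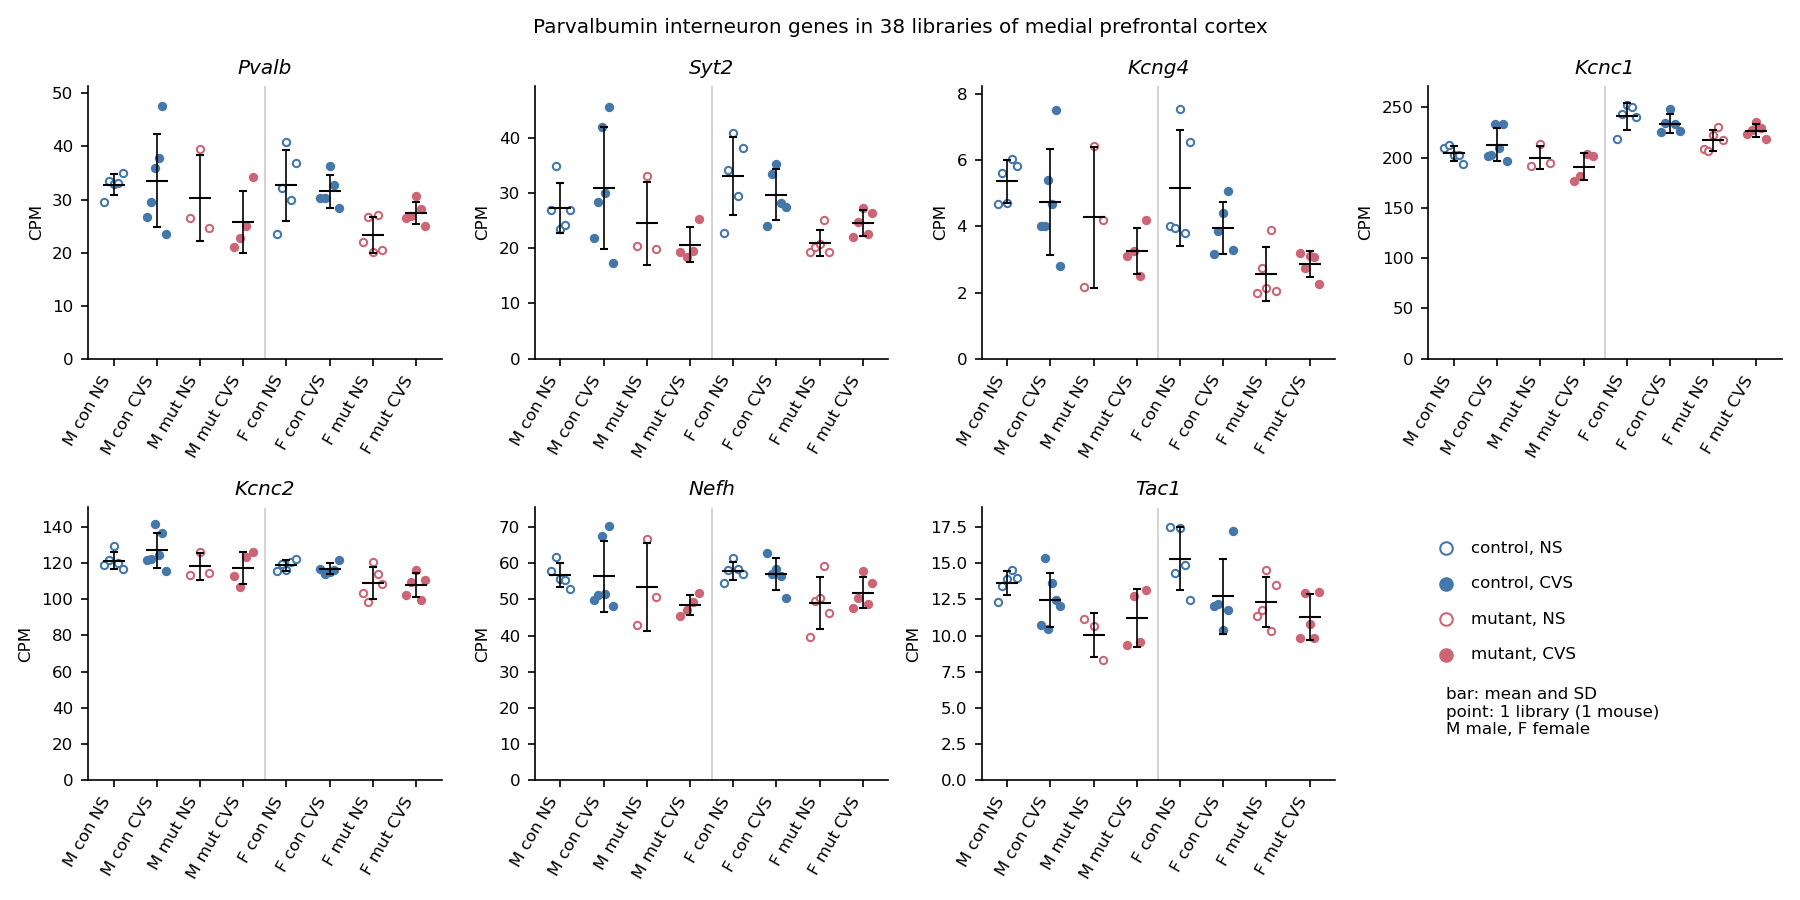
CPM of each gene (vertical axis, from 0) in the 8 groups, males left and females right of the grey line, with 1 point per library and bars for mean and SD. Mutant points tend to lie under the control points of the same sex, as for Kcng4 in unstressed females (1.98 to 3.89 against 3.79 to 7.56 CPM), with male mutant NS replicate 2 the highest of its group in 6 of the 7 panels.

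Set side by side, the genotype differences were negative for 7 of 7 genes in each of the 4 strata, a description of genes chosen on genotype. The median log2 fold change of the 7 was -0.11 in unstressed males, -0.23 in stressed males, -0.31 in unstressed females and -0.18 in stressed females, while the medians of all genes tested ran from -0.00229 to 0.00183. Across all groups the median was -0.27, against -9.43e-05 for all genes tested. Unstressed males rested on 3 mutants. Without male mutant NS replicate 2 their median was -0.35, and Kcng4 went from -0.33 to -0.74. Without replicate 1 the median was -0.0068, and Nefh stood at 0.055. When the 3 libraries with raised Cdhr1 were left out, the differences over all groups were -0.84 for Kcng4, -0.50 for Syt2 and -0.36 for Pvalb, each farther from 0 than with all libraries. Kcnc1 (-0.11), Kcnc2 (-0.12) and Nefh (-0.26) were also farther from 0, Tac1 was nearer to it (-0.24), and the median of the 7 was -0.26.

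Ordered by mean level, both control groups stood above both mutant groups for every one of the 7 genes in each sex. Because the genes were chosen on genotype, this order is a description and not a separate result. Male neighbours in that order never differed by more than both of their SDs. In females 2 of the 3 steps exceeded both SDs for Pvalb and Syt2, and 1 did for Kcng4 and Nefh. The order of NS and CVS within a genotype varied: control CVS was the highest male group for Pvalb, Syt2, Kcnc1 and Kcnc2, whereas control NS was the highest female group for all 7 genes.

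The next comparison asked whether chronic stress moved these genes, a contrast that did not enter their choice. Averaged over sex and genotype, 0 of 7 passed the quasi-likelihood test of edgeR after Benjamini-Hochberg adjustment, and 0 of 7 had an unadjusted p under 0.05. DESeq2 and limma voom also called 0 of 7, against 0.279% of the 12529 genes with an adjusted p from DESeq2 and 0.0170% of all genes by limma voom. Of all 17671 genes tested, 3 passed the edgeR test (0.0170%), and 1655 had unadjusted p-values under 0.05. Pvalb differed by -0.00061 ± 0.084 on the log2 scale (interval -0.17 to 0.17) and Syt2 by 0.0025 ± 0.103 (interval -0.21 to 0.21). The intervals of Kcnc1 (-0.043 to 0.053) and Kcnc2 (-0.047 to 0.060) were narrower than those of the other 5 genes. Kcng4 had the largest value, -0.19 ± 0.126, with an adjusted p of 0.678 from edgeR, and Tac1 followed with -0.091 ± 0.064 and an adjusted p of 0.713. Without the 3 libraries with raised Cdhr1 the Kcng4 value was 0.059 (adjusted p = 0.942 from edgeR), and with 1 library left out it ran from -0.27 to -0.089. These p-values measure the spread between single mice of a group.

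Within strata, stress again gave 0 of 7 calls in each, with DESeq2 and limma voom as with edgeR. Among male controls 2 of 17212 genes passed the edgeR test (0.0116%), and unadjusted p-values under 0.05 numbered 1272. In male mutants, female controls and female mutants 0% of genes passed. Unadjusted p-values under 0.05 numbered 581, 1433 and 1300 there, and calls by DESeq2 numbered 0, 28 and 27, with 0 in each by limma voom. The 7 genes had a median of 0.033 in male controls, -0.14 in male mutants, -0.049 in female controls and 0.081 in female mutants.

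Single genes within these strata stayed short of the adjusted threshold. In female controls all 7 values were negative, and Tac1 differed by -0.26 ± 0.120 with an unadjusted p of 0.0363 and an adjusted p of 0.539 from edgeR. Kcng4 stood at -0.38 ± 0.193 in the same mice (adjusted p = 0.591). Female mutants showed 5 positive values of 7, with Pvalb at 0.24 ± 0.123 (adjusted p = 0.644) and Syt2 at 0.23 ± 0.140 (adjusted p = 0.728). In male mutants Kcng4 stood at -0.39 ± 0.307, and this value rests on the 3 mutant NS libraries. It was -0.71 without replicate 1, 0.024 without replicate 2, and 0.58 when the 3 libraries with raised Cdhr1 were left out, where the lone mutant NS mouse is assumed to vary like the other groups.

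**Figure D2:**
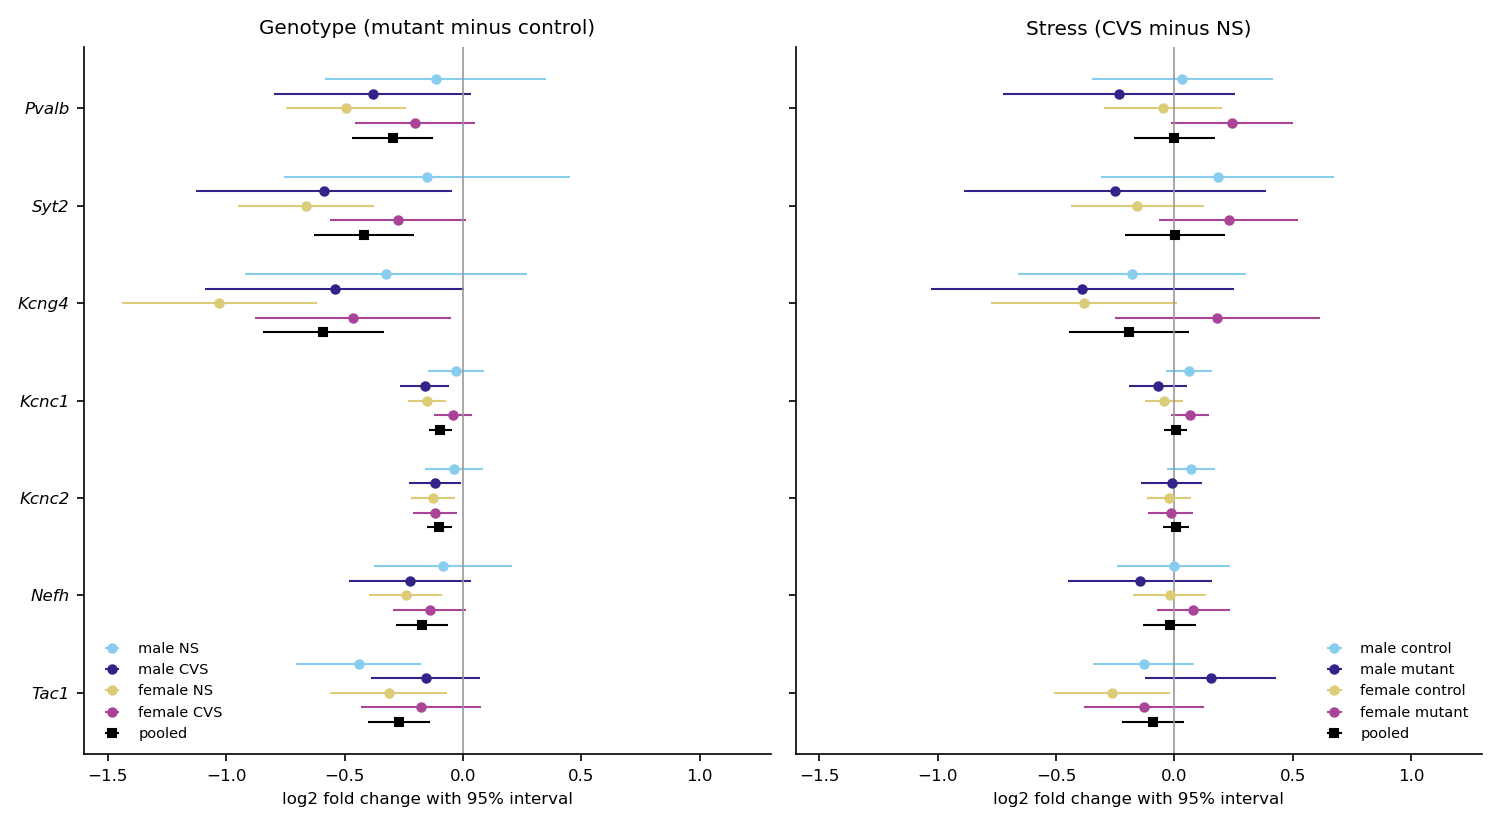
Log2 fold changes of the 7 genes (horizontal axis) with 95% intervals, for genotype on the left and stress on the right, in each stratum (circles) and averaged over strata (black squares). The genotype squares lie left of 0 for all 7 genes, from -0.59 for Kcng4 to -0.096 for Kcnc1. The genes were chosen on genotype, so these values and intervals are a description and not a test. The stress squares lie between -0.19 and 0.0063 with intervals that include 0.

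A difference in the stress response between genotypes was tested directly. The edgeR test of the interaction, averaged over sex, called 0 of 7 genes and 0% of the 17671 genes tested, with 0 of 7 and 877 of all genes at an unadjusted p under 0.05. DESeq2 and limma voom called 0 genes in the whole table. Tac1 had the largest interaction, 0.21 ± 0.129 (interval -0.052 to 0.47, adjusted p = 0.931 from edgeR), and Kcng4 stood at 0.17 ± 0.251, or 0.64 without the 3 libraries with raised Cdhr1 (adjusted p = 0.743 from edgeR). For Pvalb the interval ran from -0.33 to 0.35 and for Kcnc1 from -0.11 to 0.083.

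The stress effect was also compared between the sexes, which cannot be told apart from cohorts if these were separate. Again 0 of 7 genes and 0% of all genes tested passed the edgeR test, with 0 of 7 and 1269 at an unadjusted p under 0.05. DESeq2 called 2 genes of the whole table and limma voom 0, none of them among the 7. The female minus male difference was 0.20 ± 0.168 for Pvalb (adjusted p = 0.847) and -0.21 ± 0.129 for Tac1 (adjusted p = 0.746), with intervals of -0.15 to 0.54 and -0.47 to 0.050.

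Beyond group means, the genes varied from mouse to mouse, and most of them did so together. With the mean of each of the 8 groups removed, the correlation of a gene with the mean of the other 6 over 38 libraries was 0.860 for Syt2, 0.783 for Pvalb, 0.774 for Nefh, 0.759 for Kcnc1, 0.650 for Kcng4 and 0.605 for Kcnc2. Tac1 stood apart with -0.138. These are descriptions: all points share the library, its depth and its dissection. Among pairs, Pvalb and Syt2 had the highest correlation (0.824), followed by Pvalb and Kcng4 (0.788). Kcnc1 and Kcnc2, the paired Kv3 genes, reached 0.670.

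These correlations had higher values in males than in females. The sexes could be separate cohorts, so sex and cohort cannot be told apart here. The median correlation of the 7 genes with the others was 0.806 in the 18 males and 0.556 in the 20 females, and the difference was not tested. Kcnc2 with Pvalb gave 0.735 in males and -0.127 in females. Pvalb with Kcng4 was alike in both, with 0.787 and 0.795. Among male control CVS mice, replicate 5 was highest in Pvalb and Syt2 (47.6 and 45.6 CPM) and replicate 6 was lowest in both (23.6 and 17.2 CPM).

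The same measure was taken between the mean of the 7 genes and each of 17664 genes, and the 8 most alike outside the list were taken by rule, of which 7 are named. Cplx1, which encodes the release clamp complexin 1, came first with 0.897, and Scn4b, a sodium channel β subunit, second with 0.876. Lynx1, a modulator of nicotinic receptors, followed with 0.846, and Kcnab3, a Kv β subunit, with 0.845. Ank1, an ankyrin of the membrane skeleton, had 0.840, the transcription factor Nfic 0.816 and the zinc finger factor Scrt1 0.812. For comparison, the 1st and 99th percentiles over all genes were -0.503 and 0.546.

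These 8 genes were chosen by likeness within groups to 7 genes that were themselves chosen on genotype. Their genotype values are therefore not independent of that choice. All 8 were negative, from -0.11 ± 0.077 for Kcnab3 to -0.27 ± 0.087 for Scn4b. After adjustment 0 of 8 passed the edgeR test (lowest adjusted p = 0.0530, for Ank1). In the same samples edgeR called 0.753% of all genes lower in mutants. Unadjusted p-values under 0.05 numbered 7 of 8, against 1981 of all 17671 genes (11.2%). DESeq2 called 5 of the 8 (among them Ank1, Nfic, Lynx1 and Scrt1), against 1.87% of the 15953 genes it gave an adjusted p. Limma voom called 3 (Ank1, Nfic and Lynx1), against 1.18% of all genes. Only 1 of the 8 was among the 8 most alike in females alone, and 4 were in males alone. Ccn3, a matricellular protein, had the most negative correlation (-0.763) and was named after its value was seen. It was higher in mutants by 0.19 ± 0.038 on the log2 scale (adjusted p = 0.00546 from edgeR).

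Marker lists of cell types were correlated with the mean of the 7 genes in the same way. Other genes enriched in parvalbumin cells gave 0.732, and genes of all GABAergic neurons gave 0.722, with Gad1, a synthetic enzyme of GABA, at 0.782. Potassium channels gave 0.806, release genes 0.756, sodium channels 0.683, neurofilament partners 0.566, calcium-binding proteins 0.105 and perineuronal net genes -0.0956. Oligodendrocyte markers gave 0.637, astrocyte markers -0.369, thalamic markers -0.396, striatal markers 0.185 and olfactory bulb markers -0.00211. Somatostatin neuron markers gave -0.194, and Sst itself 0.114.

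**Figure D3:**
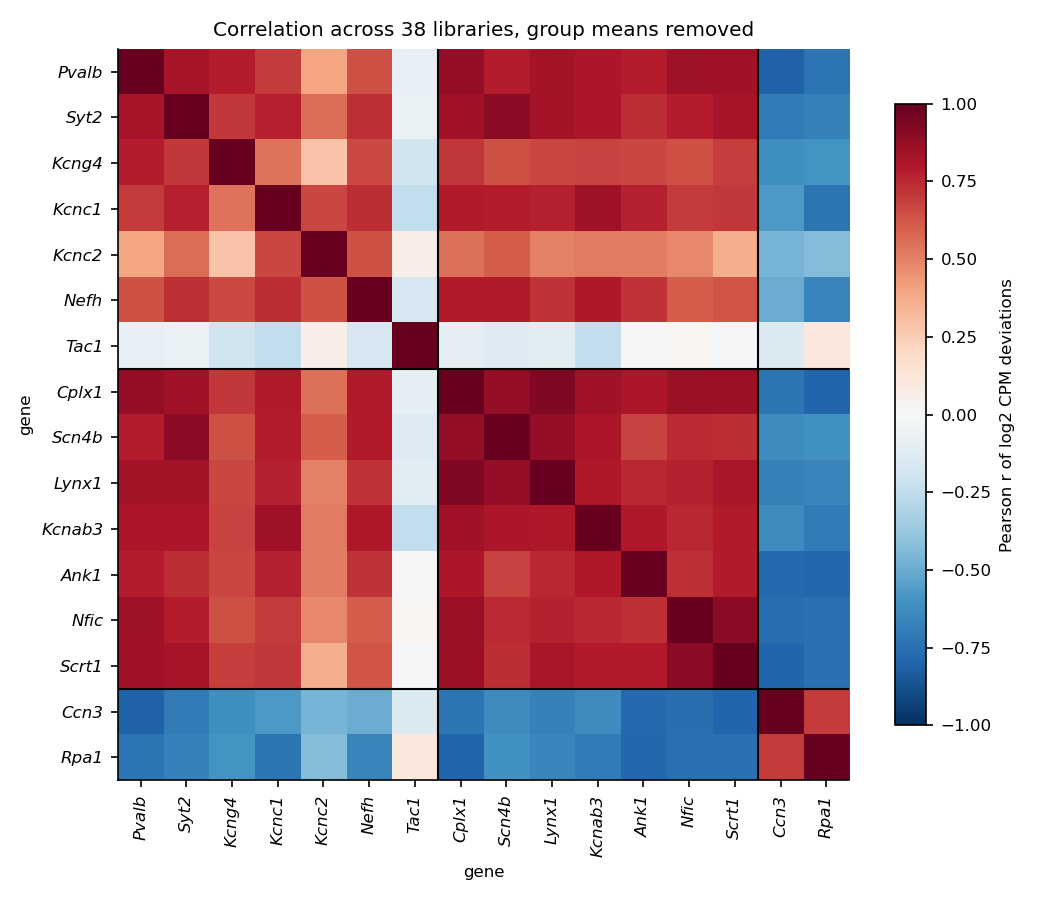
Pearson correlation (colour, from -1 to 1) of log2 CPM over 38 libraries with group means removed, for the 7 genes, the 7 named genes most alike and 2 genes of the opposite sign, separated by black lines. Pvalb, Syt2, Kcng4, Kcnc1 and Nefh form a red block with the 7 genes most alike, Kcnc2 is paler, and the Tac1 row is near white (correlation with the other 6 of -0.138).

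Genes related by function to the 7 were counted from 8 lists, chosen for their roles and not for how they moved, although earlier results of these data were known. Of 78 such genes 76 were tested, and by edgeR 2 were lower and 0 higher in mutants, against 0.753% lower and 0.340% higher of all 17671 genes. Unadjusted p-values under 0.05 numbered 23 of 76, where 11.2% of all genes had one. DESeq2 called 4, among them Ncan, and limma voom called 2, against 1.87% and 1.18% of all genes. Their median was -0.036, with 56 negative and 20 positive values, where 50.1% of all genes were negative. Vamp1, the synaptobrevin of fast terminals, fell by 0.22 ± 0.052 on the log2 scale (adjusted p = 0.0240 from edgeR). Hapln4, a link protein of perineuronal nets, fell by 0.18 ± 0.044 (adjusted p = 0.0338). Vamp1 ran from 79.1 to 120.2 CPM in male control CVS against 70.7 to 84.3 in mutant CVS mice. Hapln4 lost its call without the 3 libraries with raised Cdhr1 (adjusted p = 0.289) and when no filter on low counts was used (0.0632). It also lost it in 10 of the 38 fits that left out 1 library. Vamp1 kept its call without the filter and without the 3 libraries, and lost it without male mutant NS replicate 1 (0.0593) or 3 (0.0751).

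Taken by role, the lists gave the following values by edgeR. Unadjusted p-values under 0.05 numbered 4 of 17 potassium channel genes, 4 of 7 sodium channel genes, 4 of 12 parvalbumin cell genes, 5 of 14 release genes, 5 of 11 perineuronal net genes, 1 of 4 neurofilament genes, and 0 for calcium-binding proteins and tachykinins, beside the 11.2% of all genes. Among 17 voltage-gated potassium channel genes 0 passed, with a median of -0.051. Kcnab2, a Kv β subunit, stood at -0.061 ± 0.022 (adjusted p = 0.200 from edgeR). Of 7 sodium channel genes 0 passed (median -0.055), with Scn4b at -0.27 ± 0.087 (adjusted p = 0.171 from edgeR). Vamp1 was the 1 call among 14 release genes (median -0.028). The other synaptotagmins of that list did not pass.

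Other genes enriched in parvalbumin cells gave 0 calls of 12 with a median of -0.019. They include, named after their values were seen, Lhx6, a transcription factor of interneurons from the medial ganglionic eminence, at -0.053 ± 0.036, and Erbb4, a neuregulin receptor, at 0.013 ± 0.035. Tmem132c (-0.17 ± 0.057, adjusted p = 0.172 from edgeR) had the smallest p of the list. Neurofilament partners gave 0 of 4, with Ina at -0.058 ± 0.026 and Nefm at -0.10 ± 0.055. Calcium-binding proteins gave 0 of 8, with Calb2 at 0.057 ± 0.048. Tachykinins and their receptors gave 0 of the 3 tested of 5, with Tac2 at 0.062 ± 0.067 and Tacr3 at 0.33 ± 0.280. Perineuronal net genes, which coat parvalbumin cells, gave the Hapln4 call among 11 with a median of -0.062, and Ncan, named after its value was seen, stood at -0.064 ± 0.019 (adjusted p = 0.0933 from edgeR).

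Markers of other cells were read beside these values. Genes of all GABAergic neurons gave 0 calls of 10 (median -0.013), with Slc32a1, the vesicular GABA transporter, at -0.070 ± 0.026 (adjusted p = 0.234 from edgeR). Of 10 somatostatin neuron markers 1 was higher, Sst, which rose by 0.19 ± 0.034 in mutants (adjusted p = 0.00143 from edgeR). DESeq2 called 4 of these 10, against 1.87% of the genes it gave an adjusted p. Beside Sst these were Npy, Nos1 and Myh8, which edgeR put at -0.13 ± 0.037, 0.15 ± 0.047 and 0.75 ± 0.204. These 3 were named after their values were seen and did not pass in edgeR (adjusted p = 0.0727, 0.138 and 0.0523). Unadjusted p-values under 0.05 from edgeR numbered 5 of 10 somatostatin markers, beside 11.2% of all genes. Markers of other interneurons and of cortical glutamatergic neurons gave 0 of 10 each, with Cck at -0.069 ± 0.033 and Reln at 0.067 ± 0.033 in the former and Foxp2 at 0.31 ± 0.096 (adjusted p = 0.131 from edgeR) and Fezf2 at 0.10 ± 0.052 in the latter. Thalamic markers gave 0 of 5 tested, with Slc17a6 at 0.14 ± 0.069 and Zic1 at 0.15 ± 0.079. Olfactory bulb markers gave 0 of 4, with Cdhr1 at 0.76 ± 0.254 (adjusted p = 0.176 from edgeR) and Th at -0.28 ± 0.141. Unadjusted p-values under 0.05 numbered 1 each for the markers of all GABAergic neurons, other interneurons, cortical glutamatergic neurons and olfactory bulb, and 0 for the thalamus, and DESeq2 and limma voom called 0 in these 5 lists.

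Striatal markers gave 2 calls of 9, 1 lower and 1 higher in mutants. The lower was Penk, the enkephalin precursor, which fell by 0.24 ± 0.045 (adjusted p = 0.00234 from edgeR). Astrocyte markers gave 1 of 6, S100b, which fell by 0.14 ± 0.028 (adjusted p = 0.00166 from edgeR) and is also made by oligodendrocytes. All 6 values were negative in the astrocyte list (median -0.071), as they were in the microglial (median -0.053) and oligodendrocyte (median -0.16) lists. Oligodendrocyte markers gave 0 calls of 6, with Mog, a myelin glycoprotein, at -0.24 ± 0.068 (adjusted p = 0.0663 from edgeR). Their sum ran from 1057 to 1768 CPM in controls (median 1337) and from 988 to 1700 in mutants (median 1174). The part of these markers in the differences of the 7 genes was not tested. DESeq2 and limma voom both called Mog, and all 6 oligodendrocyte genes had unadjusted p-values under 0.05. Microglial and vascular lists gave 0 of 6 each by edgeR, DESeq2 and limma voom, with 2 and 0 unadjusted p-values under 0.05. Tmem119 stood at -0.097 ± 0.036 and Csf1r at -0.059 ± 0.025 among microglial genes, and Flt1 at -0.10 ± 0.068 and Cldn5 at -0.066 ± 0.068 among vascular genes.

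**Figure D4:**
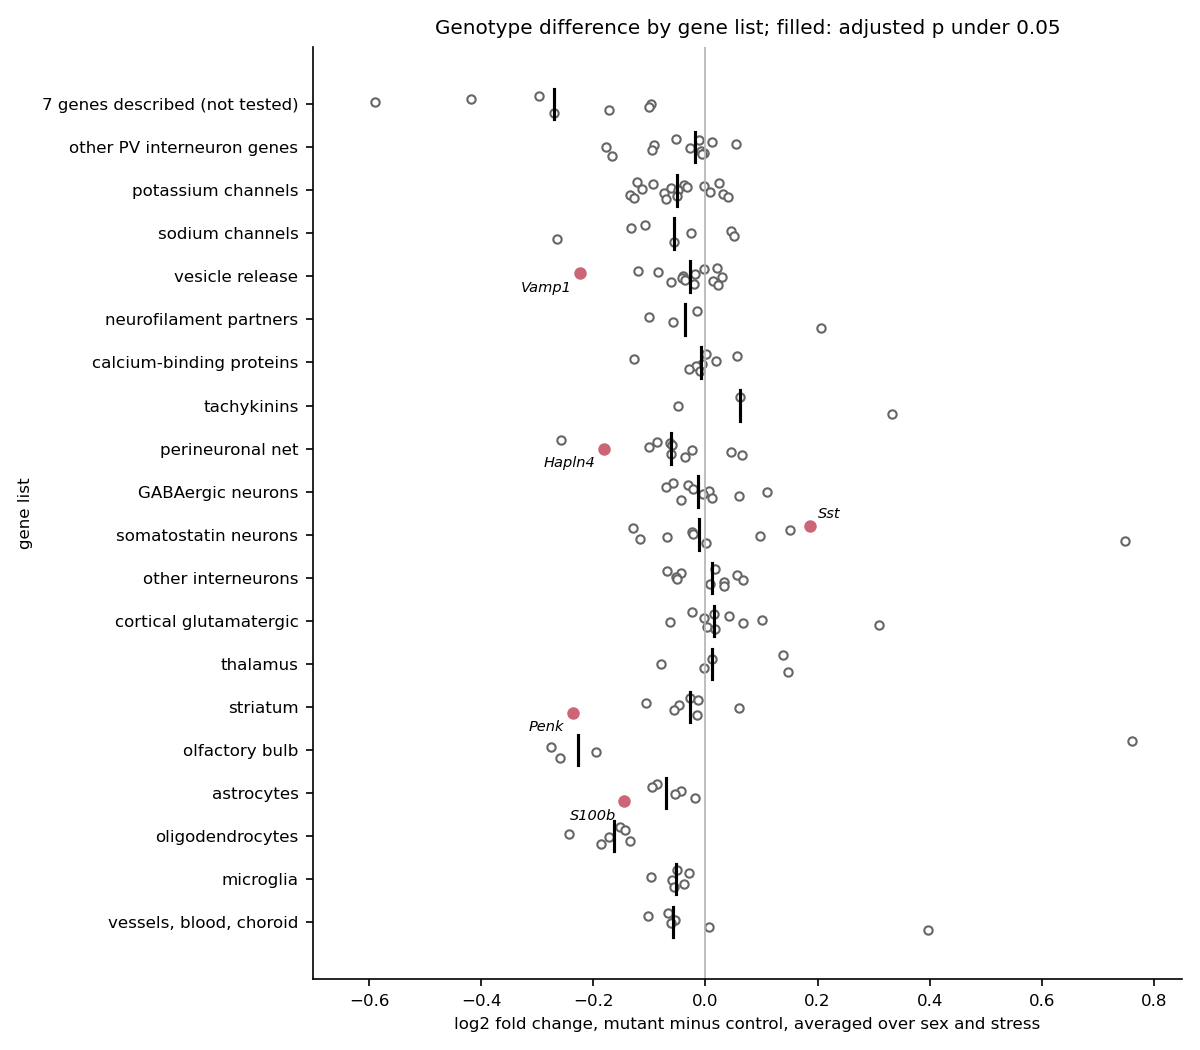
Log2 fold change of mutant against control averaged over sex and stress (horizontal axis) for the 7 genes and 19 lists, with 1 point per gene shown, a bar at the median of all tested genes of a list, and filled points for an adjusted p under 0.05. The 7 genes, which were chosen on this contrast, have a median of -0.27, and the median of the oligodendrocyte list is -0.16.

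Under stress the 8 related lists gave 0 calls of 76 in the comparison averaged over sex and genotype, with a median of -0.012. Unadjusted p-values under 0.05 numbered 8 of 76, against 9.37% of all genes, and DESeq2 and limma voom called 0. Perineuronal net genes had 10 of 11 negative values (median -0.076), with Tnr at -0.076 ± 0.024 (adjusted p = 0.314 from edgeR) and Hapln1 at -0.11 ± 0.037 (0.357). Among potassium channels, Kcne4 stood at -0.46 ± 0.184 (adjusted p = 0.430 from edgeR) and Kcnab2 at 0.053 ± 0.022. Ina (-0.058 ± 0.026) and Nefm (-0.11 ± 0.055) led the neurofilament genes, Gpr176 (-0.10 ± 0.046) and Cox6a2 (-0.19 ± 0.102) the parvalbumin cell genes, and Rims1 (-0.055 ± 0.025) and Vamp2 (0.036 ± 0.019) the release genes.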

How the data were processed

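For 38 libraries of mouse medial prefrontal cortex the authors deposited a table of raw, unnormalized read counts per gene. Tissue came from 1 mm coronal sections, and mRNA from 400 ng of total RNA was made into directional libraries and sequenced as 150-bp paired reads with 20 M planned, per the labels' protocols. Reads were handled with fastp 0.23.2, STAR 2.7.10b, featureCounts and the build GRCm39, per the submitters' processing notes. Which annotation and strand setting the counting used is not given in the sources used here. Reads of overlapping genes on opposite strands may be shared. Symbols (52029 of 57010 IDs) and exon lengths come from GENCODE vM21, an annotation of another build, and 22462 IDs had 0 counts in every library.

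Groups follow the labels. edgeR 4.0.16 in R 4.3.3 was used with TMM, filterByExpr (minimum count 10, minimum total 15) and robust quasi-likelihood tests: 1 model per sex with 4 groups (17212 genes in males, 16435 in females) for contrasts within strata, and 1 model of 38 libraries with 8 groups (17671 genes) for averaged contrasts. P-values were adjusted by Benjamini-Hochberg over all tested genes with a threshold of 0.05. Standard errors come from the log2 fold change over the root of its F statistic, and intervals are at 95%. Likeness is the Pearson correlation of log2 CPM (prior count 2) with group means removed. Named genes are the 7 genes, the 8 most alike genes with a mean of at least 5 CPM and no predicted symbol, and of each list the called genes (up to 4) or else the 2 with the smallest p. The model of 38 libraries was tested on simulated data with an added stress effect. The models per sex and the genotype contrasts were not simulated. Alternatives were DESeq2 1.42.0, limma 3.58.1 voom, other size factors, no filter, omitted features and omitted libraries. Across 74 replicate pairs, chi-square per degree of freedom ran from 3.495 to 15.22 and 0 pairs were identical.

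The 7 genes and the gene lists were chosen with earlier results of these data known. The promoter windows are from RefSeq. Some genes, among them genes that the naming rule takes, are not reported here by name.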

Additional observations from a re-analysis of the deposited data

Results flagged for a closer look

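In groups of 4 to 10 mice, the highest and lowest values of the 7 genes were set against the gap that Dixon's 95% criterion allows. Of 49 gene and group combinations 3 exceeded it, and chance alone flags about 1 in 20 groups. Syt2 was 25.32 CPM in male mutant CVS replicate 4, where the next of the 4 mice had 19.42 CPM. Pvalb was also highest in that mouse, with 34.3 CPM against 21.1 to 25 in the others. Syt2 was 25.14 CPM in female mutant NS replicate 4, where the next of the 5 mice had 20.83 CPM, and Kcng4 was highest there too, with 3.89 against at most 2.75 CPM. Tac1 was 17.21 CPM in female control CVS replicate 5, where the next mouse had 12.15 CPM, while Pvalb (28.4 CPM) was lowest of its group in the same library. Without this library, the Tac1 genotype difference in stressed females was -0.047, against -0.18 with it.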

How the results depend on the processing

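Stress, its interaction with genotype and its difference between sexes gave 0 calls among the 7 genes in every alternative run and in every fit that left out 1 library. Genotype medians of the 7 genes stayed negative: over all groups from -0.271 to -0.259 in the other alternatives and from -0.292 to -0.238 with 1 library left out. In unstressed males the median moved from -0.115 to between -0.350 and -0.00678 with 1 library left out. The median likeness, 0.759, was 0.556 in females only.

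Counts over the whole table moved more. For genotype averaged over strata (193 genes), DESeq2 called 299, the fit without the 3 libraries with raised Cdhr1 called 93, and fits without 1 library called 101 (male mutant NS replicate 3) to 233 (male mutant NS replicate 2). For averaged stress (3 genes) these were 35, 36 and 0 to 16, with 6 without a filter. DESeq2 called 23, 28 and 27 genes for stress in male controls, female controls and female mutants, and 15, 51 and 36 were called without a filter. In male controls limma voom and the fit of all 38 libraries called 0. Without the 3 libraries, 8 genes were called for stress in male mutants, 3 for the interaction and 3 for the sex difference, which had 6 without a filter and 2 by DESeq2. The cause was not tested. No paired analysis was possible because the numbers in the labels are animal names that do not link mice across groups. Kcng4, with 36 to 160 counts, is the gene most limited by depth.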
